A study of Mus musculus with 2 samples.

Results

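Microtubules are hollow polymers built from dimers of 1 alpha-tubulin and 1 beta-tubulin protein. A mouse carries several genes for each, called isotypes, whose proteins often differ most in a short acidic C-terminal tail that faces the outside of the microtubule. The tail is where enzymes add chains of glutamate and where, on alpha-tubulin, a final tyrosine is removed and put back. Neurons rely on microtubules for axon growth and transport, and are known for abundant Tuba1a, Tubb2a, Tubb2b and Tubb3. The reads of 10 alpha and beta isotype genes were taken from long-read RNA sequencing of the hippocampus: every transcript model assigned to Tuba1a, Tuba1b, Tuba1c, Tuba4a, Tubb2a, Tubb2b, Tubb3, Tubb4a, Tubb4b or Tubb5 was used. Of these 10 genes, 10 had at least 1 read, out of 18311 annotated genes with reads.

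The tissue was the hippocampus (labelled as a hippocampal layer) of male B6CASTF1/J mice, the first-generation cross of C57BL/6J and CAST/EiJ, at 14 days of age. There was a single group, with no treatment and no other genotype, and it holds 2 libraries, biological replicates 1 and 2. Each was made from 2 µg of total RNA of 3 pooled males, with spike-in RNAs added. In the label of each tissue sample the pooled animals differ, but the library label names the same animals for both, which means that differences between them can be technical. Comparisons between the libraries therefore describe how these 2 libraries differ, not a condition.

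Replicate 1 held 821324 mouse reads and replicate 2 held 743862, after spike-in reads (1.31% and 1.26% of all reads) were left out. A long read is meant to cover a cDNA in 1 piece, whatever its length, and levels are given in CPM, reads per 1000000 mouse reads, where 1 read is worth 1.22 CPM in replicate 1 and 1.34 CPM in replicate 2. With both libraries joined, reads were found for 9 of 9 markers of dentate and CA neurons, such as Wfs1 with 155 and 187 CPM. The lowest, Dsp, had 0 reads in replicate 1 and 4 in replicate 2. Markers of neurons summed to 3429 CPM in replicate 1 and 3073 CPM in replicate 2, and markers of astrocytes to 4392 and 4227 CPM. Dividing-cell markers summed to 25.6 and 32.3 CPM. Myelinating oligodendrocyte markers stood apart between the libraries, with 6020 CPM in replicate 1 and 3001 CPM in replicate 2, and 15 of 15 were higher in replicate 1.

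The coding regions end in the tails described above. Shown here for Tuba4a and the beta genes are the last 60 coding bases before the stop codon (20 codons), from the GENCODE M21 transcripts on mm10, 5′ to 3′, with glutamate codons (GAA and GAG) in capitals. All lie in the fourth and last exon.
Tuba4a, chr1:75215625-75215684, minus strand: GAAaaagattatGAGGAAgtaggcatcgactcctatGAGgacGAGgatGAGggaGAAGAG
Tubb2a, chr13:34074471-34074530, minus strand: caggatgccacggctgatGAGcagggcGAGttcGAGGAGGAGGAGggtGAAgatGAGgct
Tubb2b, chr13:34127474-34127533, minus strand: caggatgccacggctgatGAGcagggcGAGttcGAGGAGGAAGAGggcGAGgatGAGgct
Tubb3, chr8:123421620-123421679, plus strand: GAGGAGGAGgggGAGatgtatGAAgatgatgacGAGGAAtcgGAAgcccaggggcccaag
Tubb4a, chr17:57080693-57080752, minus strand: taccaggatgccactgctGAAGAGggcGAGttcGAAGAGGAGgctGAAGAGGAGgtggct
Tubb4b, chr2:25222311-25222370, minus strand: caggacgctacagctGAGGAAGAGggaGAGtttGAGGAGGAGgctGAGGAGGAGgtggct
Tubb5, chr17:35834985-35835044, minus strand: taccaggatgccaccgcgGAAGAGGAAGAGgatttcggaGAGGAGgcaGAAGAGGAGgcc

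Glutamate codons numbered 8 in Tuba4a. Among beta genes they ran from 8 in Tubb2a, Tubb2b and Tubb3 to 10 in Tubb4b. The last codon of Tuba4a was a glutamate codon. Tubb3, the beta isotype used as a marker of neurons, ended in a lysine codon (aag), whereas the other beta genes ended in an alanine codon. Over their whole coding region Tuba1a and Tuba1b were 98.3% identical and Tubb2a and Tubb2b 96.5%, and all beta pairs fell between 81.7% and 96.5%. Their 3′ untranslated regions were less alike by this measure, at 48.6% for Tuba1a with Tuba1b and 24.6% for Tubb2a with Tubb2b (identity over a global alignment, gaps counted as differences). These regions differ in length, with 197 bases in Tuba1a and 157 in Tuba1b, and 194 in Tubb2a and 723 in Tubb2b. In the Tubb2 pair the gaps that unequal length requires make up most of the difference. How the authors' alignment treated reads that fit both members of such a pair was not tested, so values of these close copies carry that uncertainty.

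Each gene's main transcript had 4 exons, and the place where intron 1 cuts the coding sequence differed between the families. In alpha genes exon 1 held 3 coding bases, the start codon, and in beta genes it held 57. The first 24 coding bases are shown with the bases of exon 1 in capitals. Their opening codons encode the N-terminal peptide through which free tubulin is known to trigger decay of its own translated mRNA.
Tuba1a start: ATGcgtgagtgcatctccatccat
Tuba4a start: ATGcgcgagtgcatttcagtccat
Tubb2a start: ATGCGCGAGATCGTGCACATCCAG
Tubb3 start: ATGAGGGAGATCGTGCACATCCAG
Tubb4a start: ATGCGGGAAATCGTGCACCTGCAA

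Exons 2, 3 and 4 held 223, 149 and 969 to 978 coding bases in the alpha genes, and 109, 111 and 1055 to 1073 in the beta genes. Exon 4 thus carried 72.1% to 72.3% of the coding bases of an alpha gene and 79.2% to 79.5% of those of a beta gene. Differences were larger outside the coding region: the 3′ untranslated region was 101 bases long in Tuba1c and 1394 in Tuba4a, and intron 3 was 123 bases long in Tubb5 and 4244 in Tubb4a.

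**Figure D1:**
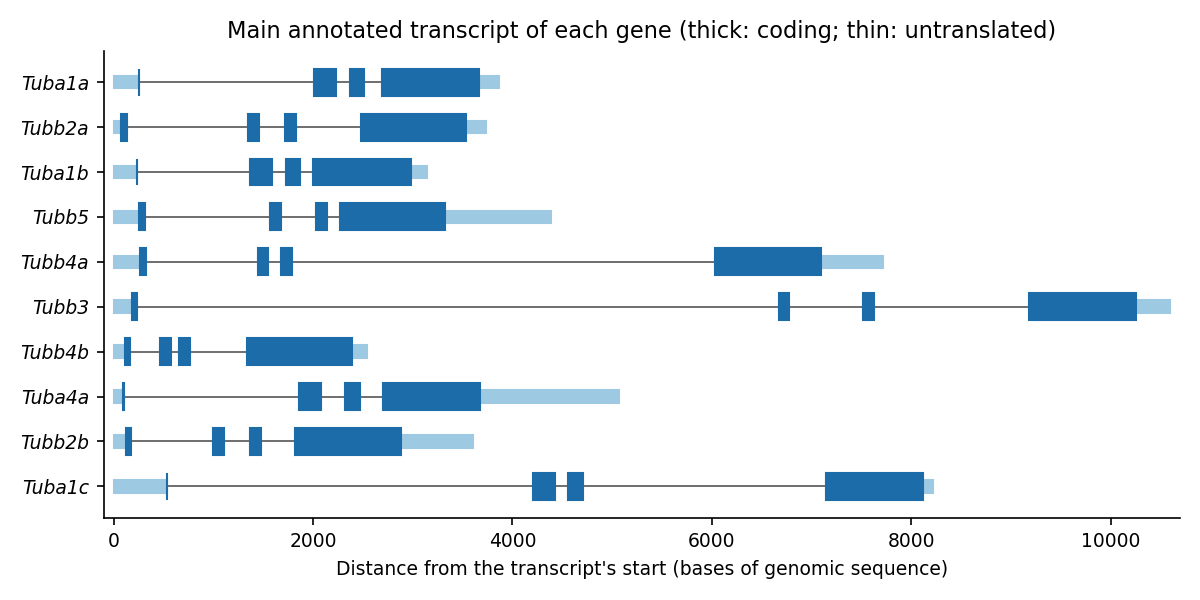
Main annotated transcript of each gene, drawn to scale from its start (x axis, bases of genomic sequence) and ordered by level from the top. Thick boxes are coding, thin boxes are untranslated and lines are introns, and each gene shows 4 exons of which the last holds most of the coding sequence.

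The 10 genes together gave 14328 reads in replicate 1 and 12364 in replicate 2, which was 1.74% and 1.66% of all mouse reads (mean 1.70% ± 0.0582, SD, n = 2). Alpha genes made up 8498 CPM in replicate 1 and 8117 CPM in replicate 2 (8308 ± 270 CPM, SD, n = 2). Beta genes made up 8947 and 8504 CPM (8725 ± 313 CPM, SD, n = 2). The ratio of alpha to beta reads was 0.950 in replicate 1 and 0.954 in replicate 2, so reads of the 2 partners of the dimer were close in number.

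A single gene led each family. Tuba1a (chr15:98949837-98953703, minus strand), the alpha isotype of postmitotic neurons whose mutations disturb cortical development in people, had 5515 reads and 6715 CPM in replicate 1, and 4789 reads and 6438 CPM in replicate 2. Among all annotated genes it ranked 2 by mean CPM. It supplied 79.0% of alpha reads in replicate 1 (Wilson 95% interval from 78.0 to 80.0) and 79.3% in replicate 2 (78.3 to 80.3). Reads over its exons that were assigned to Gm49450, an overlapping annotated locus, numbered 5 in replicate 1 and 211 in replicate 2. They are left out of these values and of the sums, shares and ratios of alpha reads.

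Tuba1b (chr15:98931425-98934565, minus strand), an alpha isotype found in most cell types and neighbour of Tuba1a, had 1521 CPM in replicate 1 and 1430 CPM in replicate 2. That was 17.9% and 17.6% of alpha reads. Without the Gm49450 reads, Tuba1a reads exceeded Tuba1b reads 4.42 times in replicate 1 and 4.50 times in replicate 2.

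Tuba4a (chr1:75214228-75219865, minus strand), the alpha isotype made without a final tyrosine, had 263 CPM in replicate 1 and 247 CPM in replicate 2, or 3.09% and 3.05% of alpha reads. Tuba1c (chr15:99029891-99038110, plus strand), a widely expressed alpha isotype, had 0 reads in replicate 1 and 1 read in replicate 2. A count of 0 in replicate 1 allows up to 3.65 CPM, so Tuba1c was at or near the limit of detection in both libraries.

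Tubb2a (chr13:34074274-34078007, minus strand), the leading beta gene, had 4738 reads and 5769 CPM in replicate 1, and 4089 reads and 5497 CPM in replicate 2. It ranked 3 among all annotated genes and gave 64.5% of beta reads in replicate 1 (Wilson 95% interval from 63.4 to 65.6) and 64.6% in replicate 2 (63.5 to 65.8). Tuba1a and Tubb2a together accounted for 71.6% of the reads of the 10 genes in replicate 1 and 71.8% in replicate 2.

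Tubb2b (chr13:34126748-34130466, minus strand), the close copy of Tubb2a that is known for its role in migrating neurons of the embryo, had 105 reads and 128 CPM in replicate 1, and 118 reads and 159 CPM in replicate 2. Tubb2a reads outnumbered Tubb2b reads 45.1 times in replicate 1 and 34.7 times in replicate 2. Markers of immature neurons were uneven: Stmn2, which stays on in mature neurons, had 732 and 663 CPM, while Dcx, a protein of migrating neurons, had 4.87 and 10.8 CPM. Between them lay Neurod2 with 85.2 and 98.1 CPM, Neurod1 with 69.4 and 71.2, Igfbpl1 with 11.0 and 20.2, and Sox11 with 7.31 and 13.4. Whether the Tubb2b level goes with any of these markers was not tested.

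Tubb5 (chr17:35833921-35838306, minus strand), a beta isotype of most cell types, was second in its family with 1071 CPM in replicate 1 and 997 CPM in replicate 2. Tubb3 (chr8:123411424-123422015, plus strand), the neuronal beta isotype, had 667 CPM in replicate 1 and 699 CPM in replicate 2. Tubb4b (chr2:25222160-25224702, minus strand), a widely expressed isotype that is also a main tubulin of cilia, had 544 and 548 CPM.

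Tubb4a (chr17:57080066-57087782, minus strand), a brain isotype known in neurons and oligodendrocytes, had 630 reads and 767 CPM in replicate 1, and 449 reads and 604 CPM in replicate 2. Its share of beta reads was 8.57% in replicate 1 (Wilson 95% interval from 7.96 to 9.24) and 7.10% in replicate 2 (6.49 to 7.76). Of the beta genes, it was the only one whose intervals for the 2 libraries did not overlap.

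**Figure D2:**
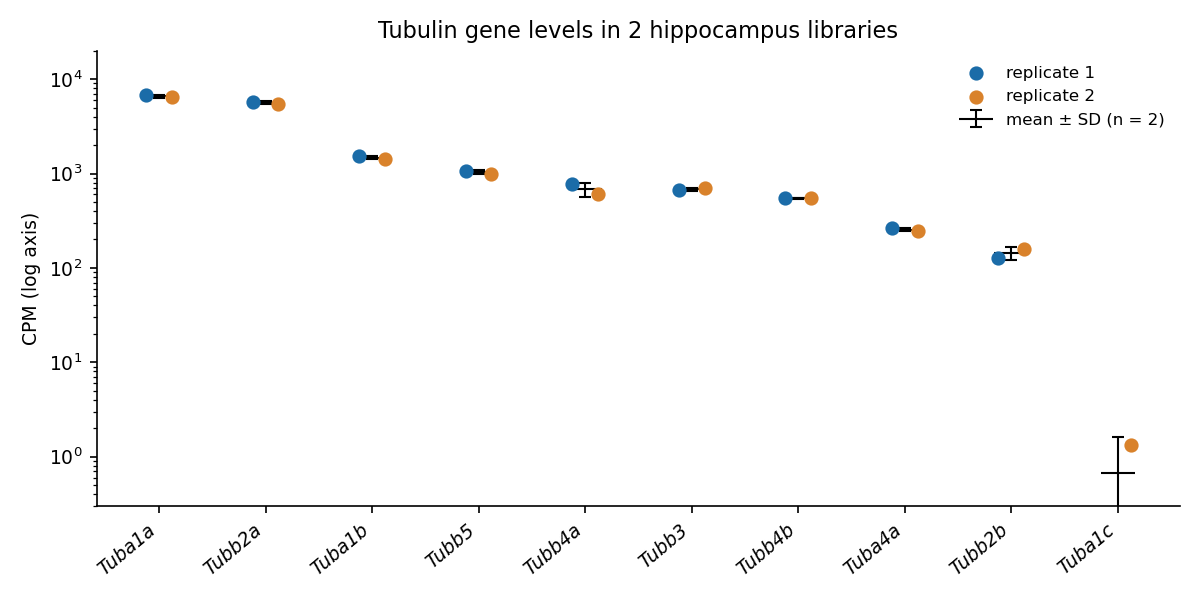
CPM on a log axis for each gene in replicate 1 (blue) and replicate 2 (orange), with the mean ± SD (n = 2) in black. Levels run from 6576 CPM for Tuba1a to 0.672 CPM for Tuba1c, whose value of 0 in replicate 1 cannot be drawn on a log axis.

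By mean CPM the order was Tuba1a, Tubb2a, Tuba1b, Tubb5, Tubb4a, Tubb3, Tubb4b, Tuba4a, Tubb2b and Tuba1c. The values of neighbours did not overlap between libraries, except for Tubb4a and Tubb3, with means of 685 ± 116 and 683 ± 22.5 CPM (SD, n = 2). Per kilobase of the main transcript, Tuba1a had 3724 CPM per kilobase in replicate 1 and 3571 in replicate 2. Tubb2a had 3583 and 3414, so that this leading pair overlapped. The replicate 2 value of Tuba1a leaves out the 211 reads assigned to Gm49450, and the overlap depends on that assignment. On the same scale Tubb4a came after Tubb3 and Tubb4b, with 344 and 271 CPM per kilobase against 357 and 374 for Tubb3 and 341 and 343 for Tubb4b. With the planned length, the mean over the reads' own models, Tubb2a came first with 3768 CPM per kilobase before Tuba1a with 3681. That mean is lowered in Tubb2a by a model of 1 base that held 263 and 371 of its reads.

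**Figure D3:**
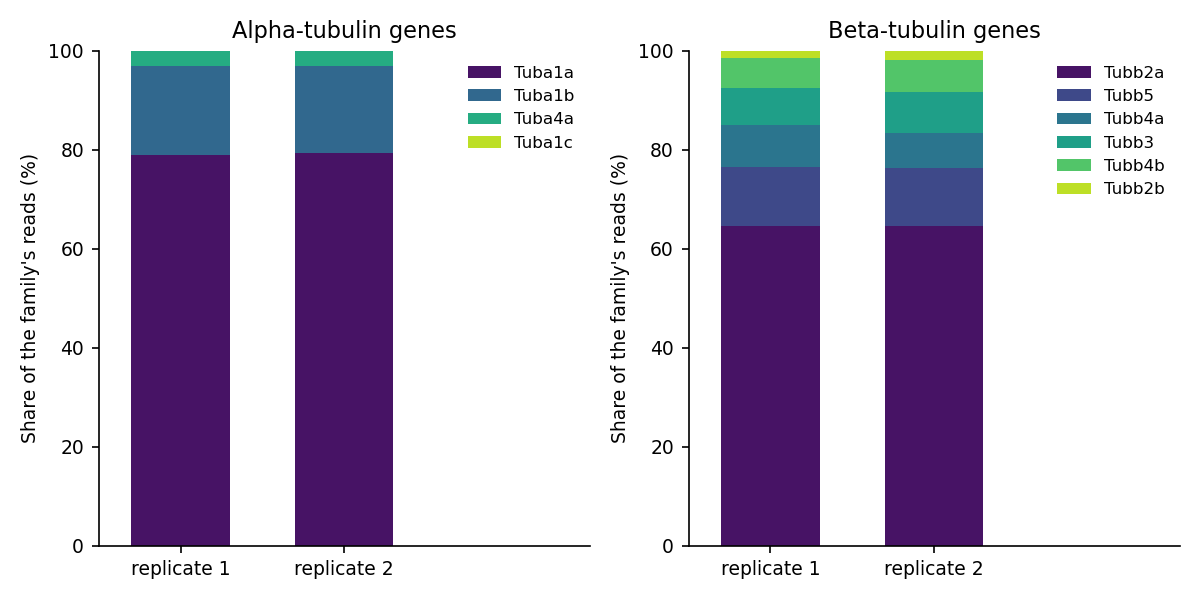
Share of alpha reads (left panel) and beta reads (right panel) from each gene, as percent, with replicate 1 and replicate 2 as separate bars. Tuba1a fills 79.0% and 79.3% of the alpha bars, and Tubb2a 64.5% and 64.6% of the beta bars.

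Other tubulin genes were below the 9 tubulin genes described above that could be tested, though above Tuba1c where they had reads. Of 15 other annotated genes of the alpha, beta, gamma, delta and epsilon groups, including the gamma-tubulin complex proteins, 11 had reads, and 0 of 3 tubulin pseudogenes did. The highest were Tubg1, the gamma-tubulin that seeds new microtubules, with 93.8 and 84.7 CPM, Tubg2 with 67.0 and 44.4 CPM, and Tubgcp2, a subunit of its ring complex, with 58.4 and 44.4 CPM.

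To ask which genes differed between the 2 libraries by more than counting error, each gene's reads were set against all other mouse reads by Fisher's exact test, two-sided, with Benjamini-Hochberg adjustment over 8875 genes. Only Tubb4a passed among the 9 tubulin genes with enough reads, at a log2 ratio of replicate 1 over replicate 2 of 0.35 (adjusted Fisher's exact p = 0.0118). Over all genes tested, 140 of 8875 passed (1.58%). The median log2 ratio was 0.07 over the 9 tubulin genes, of which 6 were above 0, and -0.01 over all genes tested. The p-values cover counting error alone, since each side is 1 library.

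The remaining log2 ratios ran from -0.31 for Tubb2b (adjusted Fisher's exact p = 0.652) to 0.10 for Tubb5 (0.713). Tuba1a stood at 0.06 (0.407) and Tubb2a at 0.07 (0.363). Both of these passed when library sizes were set by the median of ratios, which put Tuba1a at 0.12 (adjusted p = 0.00552) and Tubb2a at 0.13 (adjusted p = 0.00580). Tuba1a was at 0.00 and did not pass when reads over the same exons were counted, whatever gene they were assigned to. With annotated transcripts only it was at 0.00 as well. Tubb4a passed in all 6 alternatives, with adjusted p between 9.84e-04 and 0.0237.

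Markers of myelinating oligodendrocytes, a cell type in which Tubb4a is known, moved the same way as Tubb4a. Among all genes tested, 1.58% passed. Of 15 markers, 10 could be tested and 6 passed, each higher in replicate 1, with a median log2 ratio of 1.14. None was at 0 in either library. Mbp, a main myelin protein, had 3746 CPM in replicate 1 and 1687 CPM in replicate 2, and Mag, an adhesion protein of the inner myelin layer, had 130 and 48.4 CPM. Snap25, a synaptic protein of neurons, was higher too, with 1372 and 1074 CPM (log2 ratio 0.35, adjusted Fisher's exact p = 2.50e-05), whereas the neuron markers had a median of 0.06. Among other cell-type markers, Aldoc of astrocytes was higher as well, with 1709 and 1387 CPM (log2 ratio 0.30, adjusted Fisher's exact p = 7.35e-05), and so was Ttr of the choroid plexus, with 194 and 87.4 CPM (1.14, adjusted Fisher's exact p = 6.30e-06). Of the dentate and CA neuron markers, Necab2 was higher in replicate 1 (0.44, adjusted Fisher's exact p = 0.0354) and Ccn3 was lower (-0.49, adjusted Fisher's exact p = 0.00439). The part of these cells in the Tubb4a difference was not tested, and in bulk tissue fewer cells of a type and less RNA per cell cannot be told apart.

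**Figure D4:**
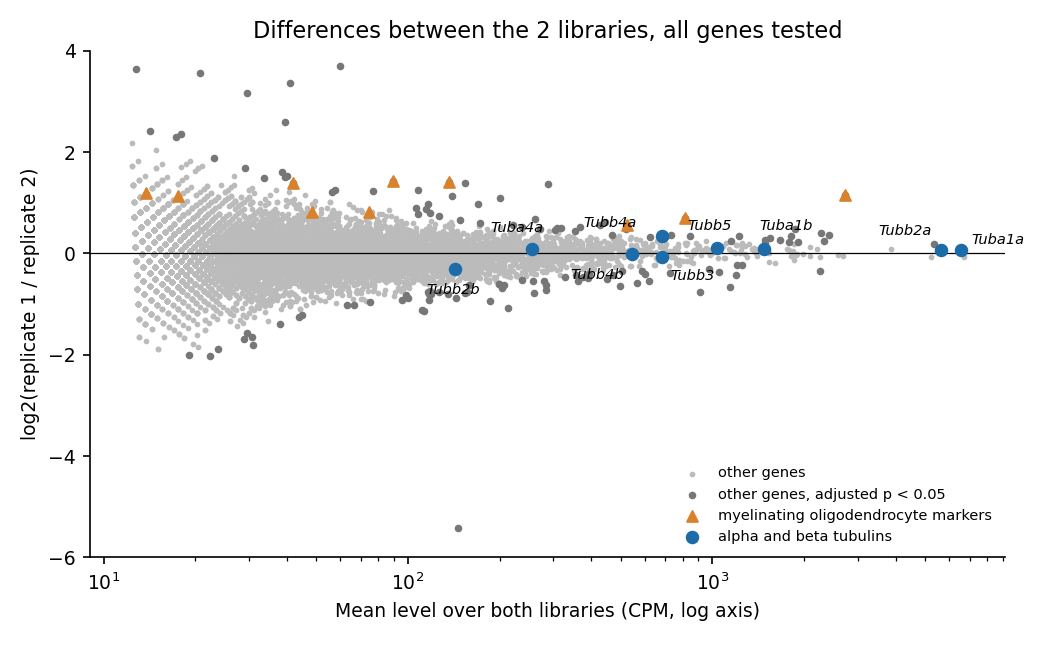
Log2 ratio of replicate 1 over replicate 2 (y axis) against mean CPM (x axis, log) for all 8875 genes tested. Tubulin genes (blue) lie between -0.31 and 0.35, while the 10 tested myelinating oligodendrocyte markers (orange triangles) all lie above 0.

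Genes that act on tubulin were described by lists, to be set beside the 1.58% of all genes tested that passed. In lists this short, a result in which no gene passed is near that share. Of 7 folding genes, the cofactors that assemble the alpha and beta dimer, 7 had reads and 6 could be tested, none of which passed at the threshold. Their summed level was 343 CPM in replicate 1 and 366 CPM in replicate 2. Tbcc had 108 and 102 CPM, Tbcb 68.2 and 82.0 CPM, and Arl2, the small GTPase that works with them, 64.5 and 60.5 CPM.

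Of 23 genes that modify tubulin, 21 had reads and 14 could be tested, of which 1 passed. This was Sirt2, a deacetylase of alpha-tubulin that is known to be abundant in oligodendrocytes, with 537 CPM in replicate 1 and 348 CPM in replicate 2 (log2 ratio 0.62, adjusted Fisher's exact p = 7.06e-06). Next in level were Tpgs2, a subunit of the neuronal glutamylase complex, with 139 and 95.4 CPM (adjusted Fisher's exact p = 0.289), and Agtpbp1, which trims glutamate chains, with 103 and 117 CPM. Among enzymes of the alpha tail, Ttl, which puts the final tyrosine back, had 31.7 and 35.0 CPM. Svbp, the partner of the tyrosine-removing vasohibins, had 17.0 and 41.7 CPM (adjusted Fisher's exact p = 0.164). Agbl2 and Agbl4 had 0 reads. The median log2 ratio of the list was 0.02.

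Of 10 gamma-tubulin ring genes, 10 had reads and 9 could be tested, and of 8 severing genes, 8 had reads and 5 could be tested. None of either list passed the test. Mzt1, a small subunit of the ring, had 102 and 78.0 CPM, beside Tubg1 and Tubg2 above. Among severing genes Spast, which is mutated in hereditary spastic paraplegia in people, had 41.4 and 51.1 CPM, and Katnal1, a catalytic katanin subunit, 25.6 and 26.9 CPM. Median log2 ratios were 0.14 and -0.14 for the ring and severing lists.

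Among reads of annotated and new transcripts, which leaves out incomplete matches, 1 annotated transcript led in each gene. Tuba1a-201 held 99.8% of such reads in both libraries, Tubb2a-201 99.6% in both, Tubb3-201 99.6% in both and Tubb2b-201 100%. The lowest share was that of Tuba4a-202, with 92.8% in replicate 1 and 96.1% in replicate 2. With spliced incomplete matches included, the share was lower in Tuba4a and Tubb2b. The full chain made up 128 of 156 spliced reads of Tuba4a in replicate 1 and 99 of 120 in replicate 2, and 59 of 67 and 71 of 80 of Tubb2b. Incomplete matches of any kind, 1-exon ones among them, had 46 and 9 reads in Tubb2b. In Tubb4b they had 80 and 9, beside 361 and 274 reads of Tubb4b-201. No other annotated transcript reached 5%. Highest of these was Tubb5-204, an annotated retained-intron form, with 8 reads in replicate 1 and 10 in replicate 2 (1.17% over both). A single transcript at 10% or more was found in 9 of 9 tubulin genes in which each library held 20 or more of those reads, and in 63.3% of 4939 genes overall.

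Exon skipping was rare. The 18 internal exons of these genes with enough reads were included in at least 99.7% of reads, and 0 of 18 lay between 5% and 95%. Of 44688 internal exons of all genes, 5.09% did, so a count of 0 in 18 exons is near that share. Since no tubulin gene had a second transcript at 10% or more, and none of these exons was variable, the tests of transcript mix and exon inclusion between libraries held no tubulin gene.

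Introns were nearly always removed. For intron 1 of Tuba1a, 5235 and 4744 reads were spliced in replicates 1 and 2 and 0 and 0 retained it. Tubb4b was highest for a retained intron: intron 1, 301 bases long (chr2:25224233-25224533), was retained in 13 of 382 reads in replicate 1 (3.40%, Wilson 95% interval, 2.00 to 5.73) and 7 of 282 in replicate 2 (2.48%, 1.21 to 5.03). Intron 3 of Tubb2a (chr13:34075529-34076177) was retained in 0.202% and 0.162% of reads. In the other introns of the 9 genes retention was at most 0.744%.

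New intron chains were rare as well. Structures with an intron or a combination of introns that the annotation lacks numbered 51, and held 52 reads in replicate 1 and 34 in replicate 2 (0.363% and 0.275% of the genes' reads). Most had 1 read (39 of 51). Found in both libraries with at least 5 reads in all were 4. One was a first exon of Tuba4a upstream of the main one, spliced to the usual exon 2 by an intron at chr1:75217435-75219425, with 7 reads in replicate 1 against 2 in replicate 2. In Tuba4a the class of new combinations of annotated splice sites held these same counts, so the pairing rather than the sites is new. Another chain joined exon 2 of Tuba1a to a first exon inside intron 1, by an intron at chr15:98951692-98952036, with 2 and 3 reads.

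The last pair moved a splice site of Tubb2a by a few bases, here shown on the minus strand with the bases left out in capitals.
Tubb2a, 5 bases missing at the start of exon 4 (chr13:34075524-34075528): actttgtgttcgGCCAGagtggtgcagga
Tubb2a, 4 bases missing at the end of exon 2 (chr13:34076549-34076552): tacaatgaagctGCTGgcaacaaatatg
The exon 4 form was read 3 times in replicate 1 and 3 times in replicate 2, the exon 2 form 4 times and 1 time, so each was below 0.1% of Tubb2a reads in each library.

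Reads that did not match a whole annotated transcript were mostly of 1-exon models. Many of these models lay over the last exon, but that of Tubb2a was 1 base long at its 3′ end. A model of Tuba1b in replicate 2 ran 728 bases past the annotated end, and a model of Tuba4a in replicate 1 ran 531 past it. Over the 10 genes, all 3 introns were spliced in 92.6% of reads in replicate 1 and 92.2% in replicate 2. Models of 1 exon held 5.85% and 6.41%. Reads that lacked exon 1 but had introns 2 and 3 made up 0.782% and 0.663%, and reads with intron 3 alone 0.223% and 0.267%. Annotated matches were a median of 91.7% of reads over the 9 tubulin genes, with both libraries joined, and 75.9% over 5911 genes, while 1-exon models were a median of 7.21% and 4.24%.

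Shares of 1-exon reads differed widely among the genes. Tubb2b, whose 3′ untranslated region has 723 bases, had 36.2% in replicate 1 (Wilson 95% interval from 27.6 to 45.7) and 32.2% in replicate 2 (24.4 to 41.1). Tuba4a, with 1394 bases there, had 27.8% (22.2 to 34.1) and 34.8% (28.3 to 41.9). Tubb5, with 1061 bases there, had 4.09% (2.97 to 5.61) and 6.33% (4.80 to 8.32). Tuba1b and Tubb3 lay near 6% and 7%, with 5.52% and 6.39% for Tuba1b and 6.93% and 7.50% for Tubb3. Tubb4a, with 624 bases there, had 8.73% and 9.80%, and Tubb4b, with 148, had 14.5% and 29.9%. The part of this length in the 1-exon shares was not tested.

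Tubb4b differed between the libraries in this share, with 65 of 447 reads in replicate 1 (14.5%, 11.6 to 18.1) and 122 of 408 in replicate 2 (29.9%, 25.7 to 34.5). Its adjusted Fisher's exact p was 2.55e-05. Tubb2a did too, with 263 of 4738 reads (5.55%) in replicate 1 and 371 of 4089 (9.07%) in replicate 2 (adjusted Fisher's exact p = 1.92e-07). All these Tubb2a reads sat in a model 1 base long at the 3′ end, so what they cover is not known. In Tubb4b the 1-exon model had 1209 bases in replicate 1 and 121 in replicate 2. Among 5911 genes, 0.660% passed the test of this share, and 3 of 9 tubulin genes did, Tuba1a being the third. This test was chosen after the values were seen. Genes with more reads, as these have, pass it at smaller differences, so the 2 shares are not on equal terms. In all reads of annotated genes, 1-exon models held 11.2% in replicate 1 and 13.0% in replicate 2. Both differences remained when reads over the same exons were counted whatever gene they were assigned to, with adjusted p of 2.91e-05 for Tubb4b and 1.89e-07 for Tubb2a.

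For Tuba1a the difference went with the gene to which reads were assigned. It had 214 reads of a 1-exon model in replicate 1, which covered the whole of exon 4, and 0 in replicate 2. There, 210 reads sat in a 1-exon model of Gm49450, an annotated protein-coding locus (chr15:98932137-98953551) with 3 exons within those of Tuba1a and 1 within that of Tuba1b, on the same strand. This model was 1 base long, at the 3′ end of Tuba1a. Counted over the same exons, Tuba1a had 1-exon shares of 3.88% in replicate 1 (3.40 to 4.42) and 4.20% in replicate 2 (3.68 to 4.79), with an adjusted Fisher's exact p of 1.00. On that count 0.495% of 6260 genes passed. Gm49450 itself had 5 reads in replicate 1 and 212 in replicate 2. In reads over the same exons, Tuba1a had 5520 and 5000 reads, and 1.44% of 9290 genes differed in level.

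The share of annotated matches followed. It passed the test in Tuba1a, with 94.9% in replicate 1 and 99.0% in replicate 2 (adjusted Fisher's exact p = 9.21e-32), Tubb2a, with 93.4% and 90.0% (3.03e-06), and Tubb4b, with 81.0% and 67.4% (0.00241). Among all 5911 genes 0.541% passed, though genes with more reads pass at smaller differences. With incomplete matches counted as annotated, Tuba1a no longer passed (adjusted Fisher's exact p = 1.00), while Tubb2b (1.85e-10) and Tubb4a (2.10e-09) did. That made 4 of 9 tubulin genes, beside 214 of 5911 genes in all with this setting. The class of most 1-exon reads changed between the libraries in Tubb2b, Tubb4a and Tubb4b, and stayed the same in Tuba1b, Tuba4a, Tubb2a, Tubb3 and Tubb5. The 1-exon reads of Tubb2b, 38 in each library, were an incomplete match in replicate 1 and a genomic model in replicate 2. Those of Tubb4a were genomic in replicate 1 (55 reads) and an incomplete match in replicate 2 (44 reads).

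**Figure D5:**
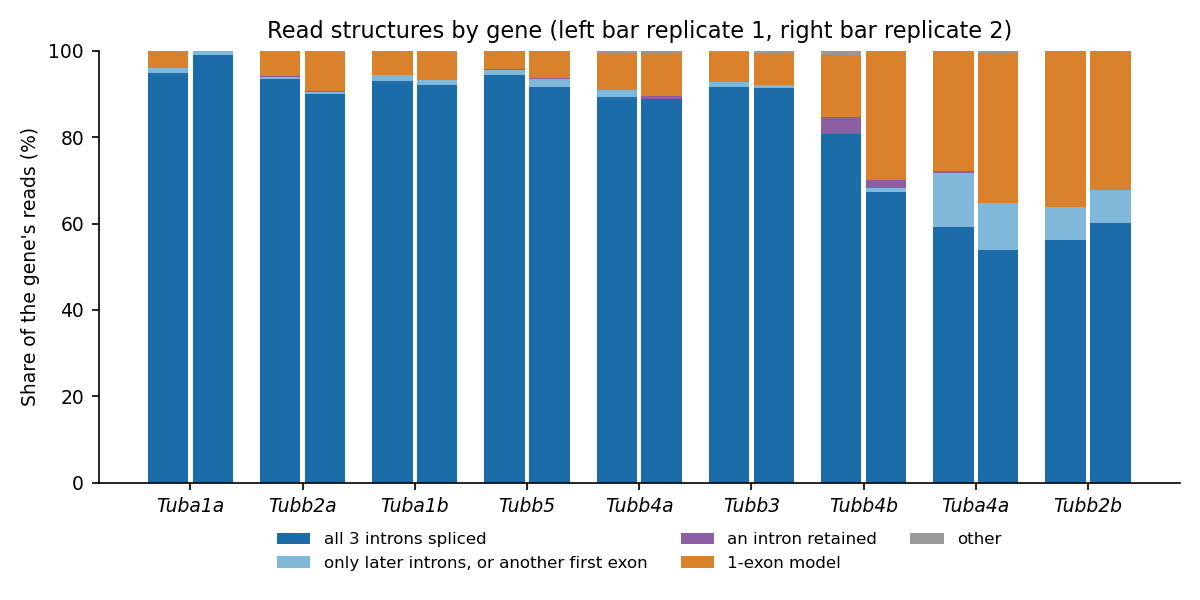
Share of each gene's reads (percent) by structure, with replicate 1 as the left bar and replicate 2 as the right bar; Tuba1c, with 1 read, is left out. One-exon models (orange) reach 36.2% and 32.2% in Tubb2b, and are absent from Tuba1a in replicate 2, where the reads were assigned to Gm49450.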

How the data were processed

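Long-read RNA-seq was deposited as 1 table of transcript models and 1 matching set of exon structures for each of the 2 libraries. The values are raw counts: whole reads per model, made by the authors with the ENCODE long-read pipeline on mm10 and GENCODE M21, per the file headers and the read-me texts. Which aligner and caller were run is not given in the sources used here. Other deposited columns that were used, per the file headers, are exon number, model length and exon coordinates. Classes are the authors': annotated (full match of an annotated intron chain), incomplete match, new combination or new splice site, and genomic.

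Reads were summed per gene and divided by mouse reads to give CPM. Shares have 95% Wilson intervals, and a count of 0 is read as up to 3 reads. Neither covers more than counting error, as no molecular identifiers are stated. Between the libraries, Fisher's exact test with Benjamini-Hochberg adjustment (threshold 0.05) was run on genes whose 2 libraries held 20 reads or more in sum (levels) or 20 or more each (shares), with 0.5 reads added for log2 ratios. The tests of levels, shares and transcript mix were tested on simulated data. The tools were Python 3.11.15 with pandas 2.3.3, SciPy 1.17.1 and Biopython 1.88; library sizes of edgeR 4.0.16 (TMM) and DESeq2 1.42.0 (median of ratios) served as alternatives.

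The genes, lists and tests were chosen with earlier results of these data known. Named were the 10 genes, the 3 most abundant other tubulin genes, the 3 most abundant and any called members of each list, transcripts with at least 5% of a gene's reads, and new chains found in both libraries with at least 5 reads. Ttl, Svbp, Agbl2, Agbl4, Stmn2, Dcx, Tubb5-204 and the markers named in the text were chosen after their values were seen, as was the 1-exon test. Of the other marker lists, microglia summed to 644 CPM in replicate 1 and 618 CPM in replicate 2, endothelium to 415 and 370, choroid plexus to 205 and 90.1, immature neurons to 910 and 877, and the dentate and CA neurons to 1201 and 1381. Coding sequences and coordinates came from GENCODE M21 on mm10, the build of the files. One gene of the severing list and some coding sequences are not reported here.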

Additional observations from a re-analysis of the deposited data

Results flagged for a closer look

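Reads of models on the strand opposite Tubb5, assigned to no annotated gene, numbered 26 in replicate 1 and 43 in replicate 2. They enter no value of Tubb5, and their longest model was 773 bases long. Reads over exons of Tuba1a on its own strand that were assigned to Gm49450 numbered 5 in replicate 1 and 211 in replicate 2, of which 210 belonged to the 1-exon model of 1 base. Both signals lie above the 3 reads that a count of 0 allows, and there were no control samples to set beside them.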

How the results depend on the processing

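Counting annotated transcripts only, 73 genes differed in level between the libraries, against 140 with all models, fewer genes (6509) being tested. The genes' summed level was then 15753 CPM, against 17033 CPM, and Tubb2a passed with a log2 ratio of 0.12 (adjusted p = 0.0142). With incomplete matches counted as annotated, 214 genes differed in annotated share, against 32. The difference in that share, replicate 1 minus replicate 2 in percentage points, changed sign in Tuba1a (0.0665, against -4.09), Tubb2b (32.2, against -3.98) and Tubb4a (-8.86, against 0.501). Counting reads over the same exons, the 1-exon difference of Tuba1a was -0.323, against 3.88. For transcript mix 4 genes differed with annotated transcripts only, against 13, and for exon inclusion 4 exons without incomplete matches and 2 with at least 50 reads, against 1; none of these are of tubulin genes. Per kilobase of the reads' mean model length, 6 of 10 genes kept their place in the order, and 7 per kilobase of the main transcript, an alternative chosen after seeing the data. Leaving out 1 library gave summed levels of 16621 to 17445 CPM, an annotated share of 92.3% to 92.7% of reads, 8 to 10 genes in their place, and 9 to 10 genes with 90% or more in 1 transcript, which with incomplete matches added held for 7 genes, against 10. The causes of these shifts were not tested, except as stated. No paired analysis was possible because the replicate numbers belong to a single group. Depth limits Tuba1c, Tubb2b and Tuba4a, whose intervals span several percentage points.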

Other observations

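Some models assigned to Tuba1a also lay over exons of Tuba1c, which is on the opposite strand of chromosome 15, with 4 reads in replicate 1 and 5 in replicate 2. One more, with 1 read in replicate 1 and 0 in replicate 2, lay over exons of both Tuba1b and Tuba1c. These 5 and 5 reads exceed the 0 and 1 reads assigned to Tuba1c itself. Stk16, an annotated gene on the strand opposite Tuba4a, overlapped its exons with 39 reads in replicate 1 and 41 in replicate 2.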
